A study of Mus musculus with 12 samples.

Results

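Collagens are the structural proteins of the extracellular matrix, and 42 autosomal protein-coding genes of the mouse carry a symbol made of Col, a number, the letter a and a number. They were taken by that rule from GENCODE mouse release M21, which holds 20807 autosomal protein-coding genes in all, and asked for peaks of MOF in visceral white adipose tissue. MOF, the product of the Kat8 gene, acetylates lysines of histone H4. Mof+/+ mice and Mof+/- mice, which carry a single working copy of Mof in every cell of the body, were compared at 8 weeks of age on a standard diet. The strain is C57BL/6 in the labels, and the methods give a backcross with C57BL/6J. Chromatin immunoprecipitation followed by sequencing (ChIP-seq) gave 12 libraries in 6 groups of 2, for MOF, for histone H3 and for input DNA in each genotype. The design text speaks of 2 control and 3 Mof+/- animals, whereas the reporting summary gives 2 littermates of each genotype. The processed data used here were 2 lists of MOF peaks, 1 for each genotype, with no value for any single library. There were 19773 peaks in Mof+/+ tissue and 731 in Mof+/- tissue. Counts below therefore describe the lists, and how animals of a genotype varied cannot be read from them.

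In adipose tissue, collagens are made mainly by fibroblasts and adipocyte progenitors, and adipocytes and endothelial cells add those of the basement membrane that surrounds them. Each collagen chain has a triple-helical stretch, and 3 classes were compared. The fibrillar class (11 genes, types I, II, III, V, XI, XXIV and XXVII) builds the cable-like fibrils of connective tissue. The basement membrane class (6 genes) holds the autosomal type IV chains, which form the sheet-like network under cells, and types XV and XVIII, which carry sugar chains and sit at basement membranes. The other class (25 genes) holds the beaded filaments of type VI, the fibril-associated, anchoring, transmembrane and short-chain collagens and the rest.

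The sequences shown here are those on which the results turn. The starts of Col4a3 and Col4a4 face away from each other across an intergenic stretch of chr1:82586850-82586920, and those of Col4a1 and Col4a2 overlap at chr8:11312805-11312826, in the leading exon of both genes. Col3a1 (chr1:45311338-45311537) has a CpG-poor promoter, and Col5a1 (chr2:27886225-27886424) and Col23a1 (chr11:51289720-51289919) have CpG-rich promoters. None of these had a peak. The promoter peaks that were found are shown by 200 bases before an internal start of Col15a1 (chr4:47303522-47303721), which lie in an intron, and by 101 bases around the summit in the Col20a1 intron (chr2:180987200-180987300). The gene body peaks of Col15a1 are not shown. All are on the plus strand of GRCm38.p6, with genome sequence and single-gene promoters from RefSeq. Capitals mark a GC box (GGGCGG, or CCGCCC on the opposite strand) or a TATA box (TATAAA). They mark letters only, and the TATAAA of Col3a1 begins 117 bases before the start.
Col4a3-Col4a4: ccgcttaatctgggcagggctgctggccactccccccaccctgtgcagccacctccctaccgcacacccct
Col4a1-Col4a2: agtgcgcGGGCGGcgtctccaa
Col3a1: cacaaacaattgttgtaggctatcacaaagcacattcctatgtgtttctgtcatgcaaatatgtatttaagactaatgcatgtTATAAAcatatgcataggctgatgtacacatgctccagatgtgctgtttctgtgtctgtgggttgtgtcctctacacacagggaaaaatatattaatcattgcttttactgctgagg
Col5a1: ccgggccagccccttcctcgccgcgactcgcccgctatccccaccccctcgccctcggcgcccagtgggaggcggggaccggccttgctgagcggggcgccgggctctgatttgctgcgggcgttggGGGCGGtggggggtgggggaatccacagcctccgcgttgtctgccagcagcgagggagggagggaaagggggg
Col23a1: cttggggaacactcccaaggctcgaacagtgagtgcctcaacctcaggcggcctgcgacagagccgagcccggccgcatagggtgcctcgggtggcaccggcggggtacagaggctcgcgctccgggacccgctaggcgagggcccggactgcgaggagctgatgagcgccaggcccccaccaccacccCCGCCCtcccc
Col15a1 internal start: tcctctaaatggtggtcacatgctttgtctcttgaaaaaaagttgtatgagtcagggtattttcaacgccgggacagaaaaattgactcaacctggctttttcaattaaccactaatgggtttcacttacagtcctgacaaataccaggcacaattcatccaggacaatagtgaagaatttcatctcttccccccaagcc
Col20a1 summit: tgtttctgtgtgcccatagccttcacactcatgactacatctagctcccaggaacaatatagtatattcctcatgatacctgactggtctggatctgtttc

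To ask whether MOF was found at the promoters of collagen genes, peaks within 1 kb of any annotated start site of a gene were counted. In the Mof+/+ list 2 of the 42 collagen genes (4.76%, 95% Wilson interval 1.32 to 15.8) had such a peak, against 42.7% of all autosomal protein-coding genes. They were Col15a1, a basement membrane collagen, and Col20a1, a fibril-associated collagen. None of the 11 fibrillar genes had one (upper limit 25.9%), and the genes of types I, III and V, the main fibrils of connective tissue, are among them. In the basement membrane class it was 1 of 6 (16.7%, 3.01 to 56.4) and in the other class 1 of 25 (4.00%, 0.710 to 19.5). The intervals of the classes overlap, and no difference between the classes could be shown with these numbers. In the Mof+/- list 0 of the 42 genes had a promoter peak (upper limit 8.38%), where the share of all coding genes was 1.37%. A count of 0 is therefore no result about the collagens in that genotype. Intervals cover counting error only. In whole tissue, fewer cells that carry MOF at a gene and less MOF per cell cannot be told apart.

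Starts of the collagen genes were also taken one by one. The 42 genes have 193 annotated start sites, 88 of them of protein-coding transcripts, and 2 of the 193 had a Mof+/+ peak within 1 kb, against 36.8% of the starts of all autosomal coding genes. Starts of the same gene are not independent of each other. Col16a1, which encodes a fibril-associated chain, has the most, 13, and none was marked. Widening the window to 3 kb added no collagen gene, while the share of all coding genes rose to 44.6%.

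Col15a1 encodes the core of a basement membrane proteoglycan and lies on chr4:47208161-47313167 (plus strand). Its promoter peak, chr4:47303109-47303876, was 768 bp wide and had a fold enrichment over input of 3.29 at the summit, which the caller forms after adding 1 to fragments and background, with a −log10 p of 5.70 and a −log10 q of 2.91. The summit, at 47303716, held 16 fragments (exact Poisson interval 9.15 to 26.0) over a background of 4.17. That summit lay 6 bp before an internal start of a protein-coding transcript, at 47303722 and 95.6 kb from the gene start. There are 6 CpG sites in the 1001 bp around this internal start and 75 around the outermost one, which had no peak.

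Gene bodies were asked in the same way, with peaks inside the gene but over 1 kb from its starts. Col15a1 was again the gene found, and the only one, 1 of 42 (2.38%, 0.422 to 12.3) against 12.6% of all coding genes in the Mof+/+ list. It held 2 such peaks. The stronger, chr4:47310183-47311233, had its summit at 47310847 in coding sequence, a fold enrichment of 4.42, a −log10 p of 8.90 and 19 fragments, and stood at the 82.7th percentile of fold enrichment of all Mof+/+ peaks. The weaker, chr4:47250395-47251174, lay in an intron and had a fold enrichment of 2.65 from 11 fragments. The strongest of the 3 peaks in this gene was thus near its 3′ end and not at a start. In the Mof+/- list 0 of 42 collagen genes had a gene body peak, against 0.692% of all coding genes.

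**Figure D1:**
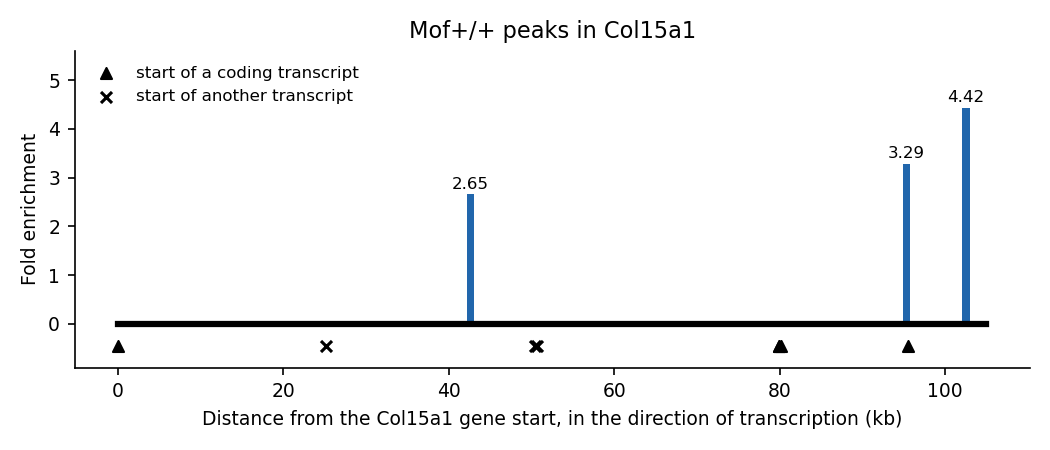
The 3 Mof+/+ peaks of Col15a1, plotted by distance from the gene start in kb (x axis) and fold enrichment at the summit (y axis; bars are drawn at the width of the peak). Triangles and crosses mark annotated starts. The bars, 2.65, 3.29 and 4.42, stand away from the outermost start, and the second lies at the internal start 95.6 kb downstream.

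Col20a1 was below the median fold enrichment of the collagen promoter peaks (3.14), and giving its values in full was chosen after they were seen. The gene lies on chr2:180986535-181018363 (plus strand). Its peak, chr2:180987073-180987846 (774 bp), began 538 bp downstream of the start, with its summit in an intron at 180987250. Fold enrichment was 3.00, −log10 p 4.52 and −log10 q 1.97, from 13 fragments (6.92 to 22.2) over a background of 3.66, which put the peak at the 27.6th percentile of fold enrichment. The summit also lay inside a non-coding transcript of the same strand, BX649560.1 (chr2:180983924-180987275), so that the peak cannot be given to either gene alone. There are 5 CpG sites in the 1001 bp around the Col20a1 start. No start site of another gene lay within 1 kb of either promoter peak.

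Both promoter peaks were weaker than the median of 3.98 (interquartile range 3.34 to 4.87) over the 8894 coding genes with a Mof+/+ promoter peak. Of the 4 Mof+/+ peaks of collagen genes, 0 overlapped a Mof+/- peak, where 2.50% of all Mof+/+ peaks did. With 4 peaks and that background, nothing can be read from the 0.

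Among coding genes, promoter peaks were more frequent the more CpG sites a start had, so the collagens were set beside genes of like CpG content. The 1001 bp around the outermost coding start held a median of 34.5 CpG sites in collagen genes (3 to 98) and 44 in all coding genes. In the quartile of genes with the fewest sites, 1 of 6 collagen genes had a Mof+/+ promoter peak, against 7.65% of the quartile. In the next quartile it was 0 of 21 against 28.1%, and in the one above that 0 of 8 against 61.3%. In the quartile with the most sites it was 1 of 7, again Col15a1 at its internal start, against 73.9%. Taking the outermost start alone, 0 of the 15 collagen genes in the upper CpG quartiles (the last and the one before it) had a peak within 1 kb of it (upper limit 20.4%), against 66.1% of all coding genes in these quartiles. Those 15 include Col23a1, a transmembrane collagen with 98 sites, Col5a1, Col4a1 and Col4a2 with 97 each, Col27a1 with 75 and Col12a1 with 71. At the other end, Col3a1 has 7 sites, Col1a2 15 and Col1a1 23. The collagens without a peak thus span CpG-poor and CpG-rich promoters. Sites cut by CviKI-1, the enzyme used to fragment the chromatin, were about as frequent at collagen starts (median 21.99 per kb) as at all starts (21.49 per kb).

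**Figure D2:**
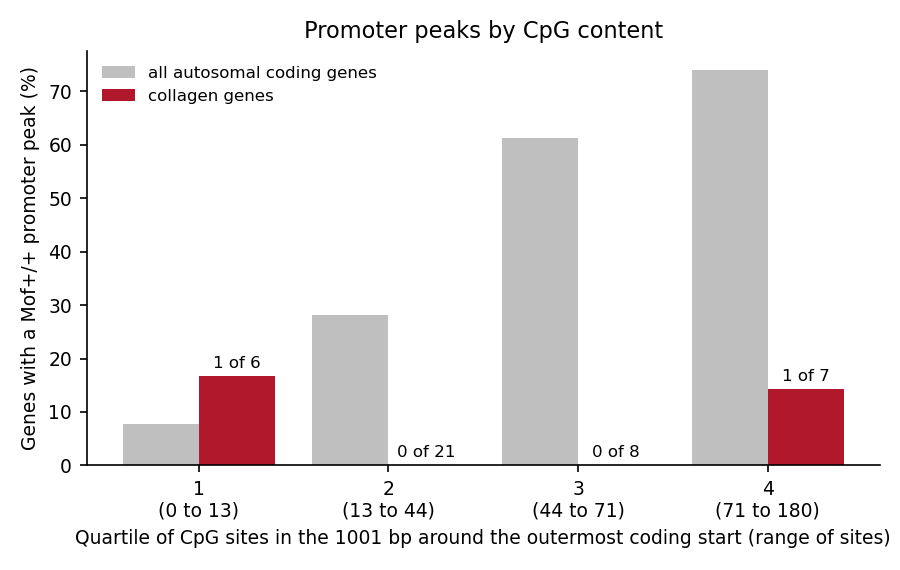
Percentage of genes with a Mof+/+ promoter peak (y axis) in each quartile of CpG sites around the outermost coding start (x axis, with the range of sites), for all autosomal protein-coding genes (gray) and collagen genes (red). The gray bars go from 7.65% to 73.9%, while the collagens have 1 of 6, 0 of 21, 0 of 8 and 1 of 7.

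Motifs of the promoter were counted in RefSeq promoters, from 250 bases before to 50 after the start, on both strands. RefSeq held 36 promoters of 33 of the 42 collagen genes. A TATA box (TATAAA) was in 5 of the 36 (13.9%) and in 13.6% of all 31396 promoters. A CCAAT box (CCAAT) was in 12 (33.3%) and in 37.3% of all. A GC box (GGGCGG) was in 21 (58.3%) and in 36.0% of all. The motifs were counted separately and their matches may overlap. A match is a description of sequence and does not show that a factor binds there.

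Collagen genes are long, with a median of 110.85 kb against 17.6 kb for all coding genes, and long genes have more room for peaks. In the quartile of longest genes, 1 of the 28 collagens there had a Mof+/+ gene body peak, against 21.9% of the quartile. Over the 4.84 Mb of collagen gene bodies there were 0.413 peaks per Mb, where all coding genes had 6.30. Coding genes without a Mof+/+ promoter peak, as most collagens are, had 1.71.

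The head-to-head pairs of type IV genes are transcribed away from each other from a shared promoter region, and both products of a pair join in the same trimer. Col4a1 (chr8:11198423-11312826, minus strand) and Col4a2 (chr8:11312805-11449287, plus strand) encode the chains found in nearly all basement membranes, and their starts lie 21 bp apart. Col4a3 (chr1:82586921-82722059, plus strand) and Col4a4 (chr1:82448423-82586849, minus strand) encode chains of the kidney glomerulus and a few other sites, and their coding starts lie 127 bp apart. Neither pair had a promoter or gene body peak in either list. Of the 1146 head-to-head pairs of autosomal coding genes with starts within 1 kb, 905 had a Mof+/+ promoter peak at both genes, which is 79.0%, and 933 at one at least. The nearest Mof+/+ peak to the Col4a1 and Col4a2 starts lay on the Col4a2 side, with a fold enrichment of 2.94. It was 150.715 kb from Col4a1 and 22.4 kb from an internal start of Col4a2, itself 128.304 kb from the gene start. For Col4a3 and Col4a4 the nearest was the promoter peak of Mff, a gene of mitochondrial fission, with a fold enrichment of 3.32. It lay 137.658 kb from Col4a4 and 9.20 kb from an internal start of Col4a3, itself 128.383 kb from the gene start. The X-linked pair, Col4a5 and Col4a6, is outside the 42 genes and had no peak in either list. Its nearest Mof+/+ peaks were 731.486 kb and 648.598 kb away.

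The distance from each collagen gene to its nearest peak shows how far the absence reaches. From the nearest start, the median distance to a Mof+/+ peak was 58.4 kb for collagen genes, 10.99 kb for all coding genes and 84.9 kb for coding genes that lack a promoter peak. By class, the medians were 63.3 kb (fibrillar), 24.3 kb (basement membrane) and 63.2 kb (other). Within 100 kb of a start, 26 of the 42 genes (61.9%) had a Mof+/+ peak, against 73.4% of all coding genes, and 16 had none. Without a promoter peak, the closest was Col11a2, a cartilage fibril chain, at 6.257 kb from a peak at Slc39a7. Col9a3, a cartilage chain that sits on type II fibrils, lay 7.634 kb from the promoter peak of Ogfr, and Col7a1, the chain of anchoring fibrils, 8.091 kb from a peak. The farthest was Col22a1, a collagen of tissue junctions, at 831.014 kb. Among the fibrillar genes of adipose matrix, Col1a1 lay 43.352 kb from the peak at Ppp1r9b, Col1a2 63.298 kb from that at Casd1, and Col5a1 121.398 kb from its nearest peak. Col5a2 and Col3a1 lie side by side and lay 291.764 kb and 455.088 kb from the same peak, at Wdr75. The type VI genes Col6a1, Col6a2 and Col6a3 lay 188.018 kb, 92.107 kb and 169.448 kb from a peak.

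**Figure D3:**
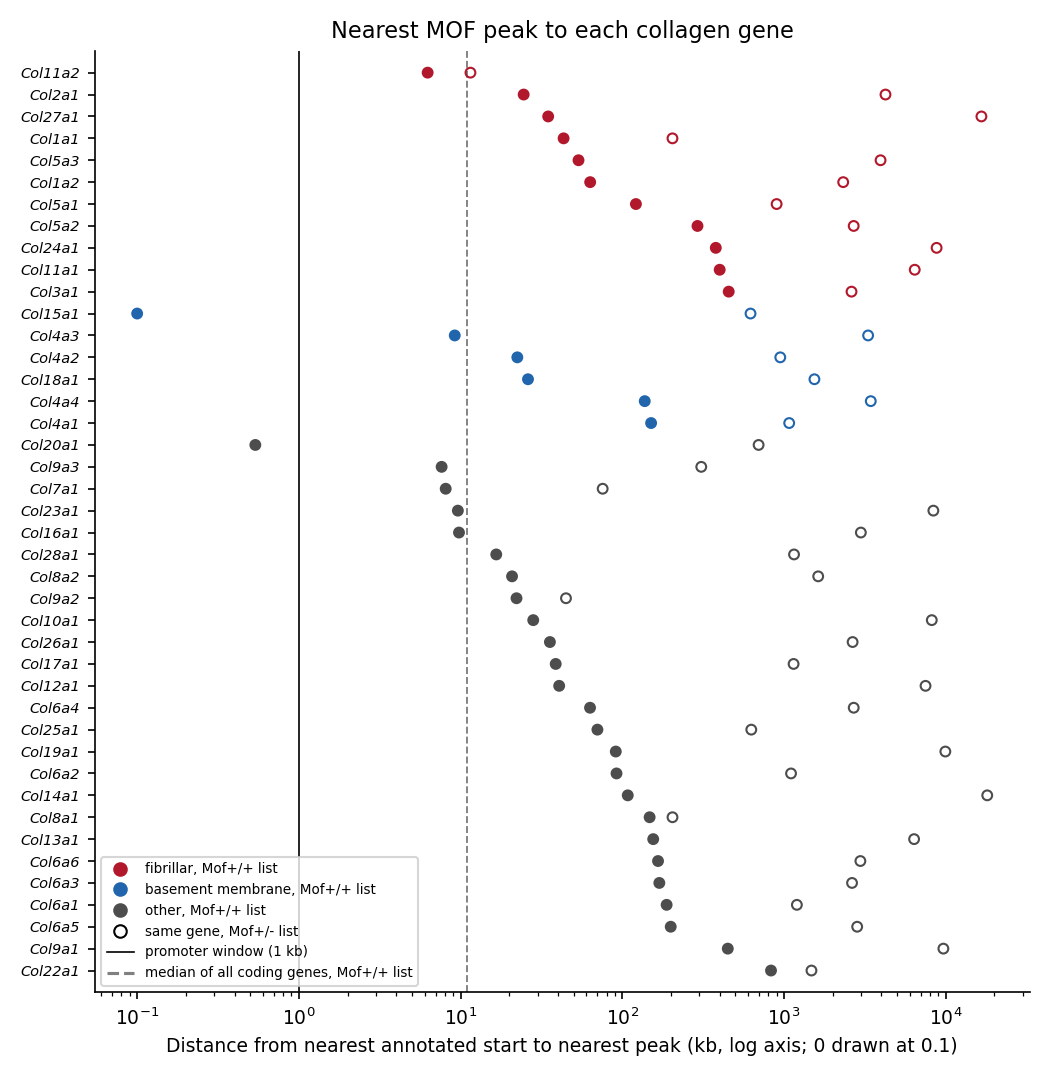
Distance in kb (x axis, log scale) from the nearest annotated start of each of the 42 collagen genes (y axis, by class) to the nearest peak of the Mof+/+ list (filled) and the Mof+/- list (open). Left of the 1 kb line stand Col15a1, drawn at 0.1 kb for a distance of 0, and Col20a1. The dashed line is the median of all coding genes in the Mof+/+ list, 10.99 kb.

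How often neighbours of collagen genes carried peaks depended on whether other collagens were counted as neighbours. For 20 of the 42 genes (47.6%, 33.4 to 62.3) the nearest other coding gene had a Mof+/+ promoter peak, against 45.8% of all coding genes. For 9 of the 42 that neighbour was itself a collagen. With collagens left out as neighbours, the next coding gene had a peak for 27 of the 42 (64.3%, 49.2 to 77.0). That interval lay above the 45.9% of all coding genes counted in the same way. Collagens that lie side by side then share a neighbour, and the 27 have 24 different ones, which the interval does not take into account. The fold enrichment at these 24 genes was 3.05 to 5.75, with a median of 4.06. Of the 40 collagen genes without a promoter peak, the nearest Mof+/+ peak lay within 1 kb of another gene's start for 33, against 76.0% of all coding genes without a promoter peak. That start belonged to a coding gene for 31, against 67.6%. The highest value, 5.75, was at Casd1 beside Col1a2, at Smap2 beside Col9a2 and at Clk4 beside Col23a1. Rxrb, which encodes a nuclear receptor, has its nearest start 2.974 kb from a start of Col11a2. No Mof+/+ peak lay within 1 kb of that Rxrb start, since the nearest to Col11a2 was 6.257 kb away. The promoter peak of Rxrb had a fold enrichment of 3.92, the value of the peak at Slc39a7 nearest to Col11a2.

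Distances to the Mof+/- list are longer for every kind of gene, since it holds far fewer peaks. Their median was 2624.88 kb for collagen genes and 1709.19 kb for all coding genes. Within 100 kb of a start, 3 of the 42 collagen genes had a Mof+/- peak, against 8.20% of all coding genes, a share near that background. They were Col11a2 at 11.51 kb from a peak at H2-Ke6, Col9a2 at 44.853 kb from a peak nearest to Zmpste24, and Col7a1 at 75.624 kb from a peak nearest to Trex1.

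Genes that modify, export, crosslink, bind and break down collagen were listed to set the collagens beside the proteins they depend on. Of 66 such genes 14 (21.2%, 13.1 to 32.5) had a Mof+/+ promoter peak and 0 had a Mof+/- one, against the same 42.7% and 1.37% of all coding genes. Among genes for modification and folding it was 4 of 18. The strongest were Plod3, which hydroxylates and glycosylates collagen lysines (fold enrichment 5.31), and Colgalt1, which adds galactose to them (5.12). The others were P4ha1 and P4hb, the subunits of prolyl 4-hydroxylase. In secretion and propeptide processing it was 3 of 12, led by the coat protein gene Sec23a (4.65) and by Mia2 (4.50), with Mia3, which loads procollagen into carriers, as the other. The crosslinking list had 1 of 5, the lysyl oxidase relative Loxl3 (3.05). The receptor list had 1 of 10, Itgb1, the integrin chain shared by the collagen-binding integrins (4.87). The degradation list had 1 of 6, the membrane-bound collagenase Mmp14 (3.98). Among partners of collagen in the basement membrane it was 4 of 15, led by the laminin chains Lamc1 (3.87) and Lamb3 (3.76), with Agrn and Lamb2. The share was under that of all coding genes in all 6 lists, but the 95% intervals of 5 reached past 42.7%, and that of the receptor list ended at 40.4%.

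Matrix proteins that are not collagens were added as a list after the data had been seen. Of 19 autosomal glycoproteins and proteoglycans, such as Fn1 (fibronectin), Eln (elastin), Sparc, Dcn and Lum, 0 had a Mof+/+ promoter peak (upper limit 16.8%), against 42.7% of all coding genes. A Mof+/+ gene body peak was in 1, against 12.6%, and 0 had a Mof+/- promoter peak, where 1.37% of all coding genes did. Nothing can be read from the last count.

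The labelled tissue was checked against markers of its cell types. Mof+/+ promoter peaks were present at 6 of 10 adipocyte markers, 4 of 10 markers of fibroblasts and adipocyte progenitors, 1 of 8 endothelial, 1 of 6 mesothelial, 1 of 6 macrophage, 5 of 6 B cell and 6 of 6 T cell markers, against 42.7% of all coding genes. Adipoq and Plin1, which define adipocytes, had fold enrichments of 2.59 and 3.54. Lipe, Pnpla2, Cfd and Lpl had 5.09, 3.58, 3.05 and 2.88, and Lep, Cidec, Fabp4 and Pparg had no promoter peak. The 95% interval of the adipocyte share (31.3 to 83.2%) held 42.7%. Of these lists, only the B cell (43.6 to 97.0%) and T cell (61.0 to 100%) intervals lay wholly above it. Pdgfra, the receptor that marks fibroblasts and adipocyte progenitors, had 5.53 in both lists. The fibroblast and progenitor share (95% interval 16.8 to 68.7%) was near that of all coding genes, and nothing about these cells is read from it. The other 3 with a Mof+/+ promoter peak were Dpp4 (3.10), Thy1 (2.88) and Ly6a (3.98). Pdgfrb, Pi16, Cd34 and the matrix genes Dcn, Lum and Fbn1 had none. The part of cell makeup in the collagen counts was not tested.

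**Figure D4:**
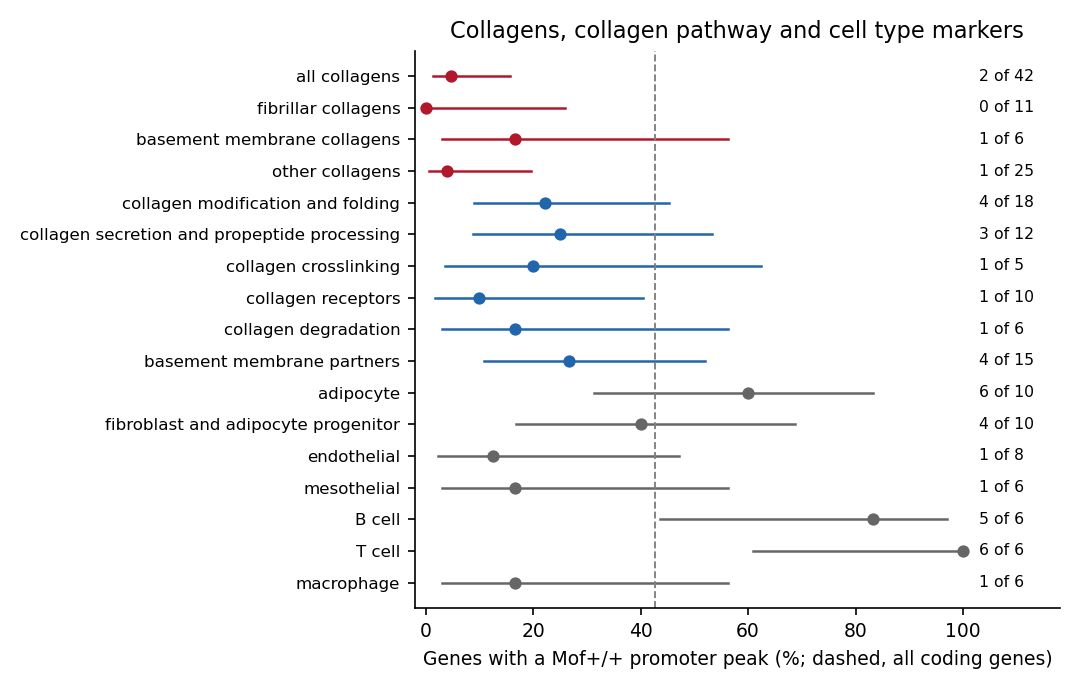
Percentage of genes with a Mof+/+ promoter peak (x axis) with 95% Wilson intervals for collagens (red), collagen pathway lists (blue) and cell type markers (gray), with counts at the right. The dashed line is the 42.7% of all coding genes. All 42 collagens together reach 4.76% with an interval up to 15.8%.

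Depth limits what a missing peak means. The median Mof+/+ summit held 16 fragments, and at the lowest background, 3.52 fragments, 11 were needed for a call, a fold enrichment of 2.65. The Mof+/- list had a median of 14 fragments, and at its lowest background of 2.26 a call also needed 11, a fold enrichment of 3.68. Where the background is higher, more fragments but a lower fold enrichment suffice, and the lists hold a few peaks down to 1.04 and 1.26. The background at collagen genes without a peak is not in the lists. Weak binding there may thus have gone uncalled, and the counts do not show that MOF was absent.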

How the data were processed

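MOF ChIP-seq of visceral white adipose tissue was analysed from 2 deposited peak lists, 1 per genotype. The authors mapped reads to GRCm38 with snakePipes and called peaks with MACS2 (2.1.1.20160309.3) against input at a q-value threshold of 0.1. How replicates were combined is not given in the sources used here. The methods also mention merging of peaks within 1000 bp, and the lists were taken as they stood. In the deposited lists, fold enrichment is the ratio that the authors' caller forms from the fragments at the summit plus 1 and the local input background plus 1, and the −log10 p-value and −log10 q-value belong to the same summit. The deposited summit position was used as a coordinate. The H3 libraries and signal tracks were not analysed here.

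Positions are counted from 1 on GRCm38, with genes from GENCODE M21 on chromosomes 1 to 19 and sequence from GRCm38.p6. A promoter peak shared at least 1 bp with the 1 kb on either side of any annotated start, and a gene body peak lay in the gene farther from all of its starts. Distances run from the nearest annotated start to the nearest edge of a peak. CpG sites were counted in 1001 bp around the outermost coding start, and quartiles were taken over all 20807 genes. Fragments and background were solved from fold enrichment and p-value (tolerance 0.001), which worked for 99.98% of Mof+/+ and 99.5% of Mof+/- peaks. The lists give no library totals. Members and lists were chosen with earlier results of these data known. Named genes were every collagen with a promoter peak, with full values at or above their median fold enrichment and for the Col4 pairs, and the highest 2 of each pathway list. Other genes of these lists with a peak, and the collagens without a peak that are given by CpG content or distance, were named after their values were seen. No test was made, since the lists used here hold no values for single libraries, and each share is given beside that of all genes. Alternative windows, start sites, thresholds and classes were tried. The counting was tested on simulated data, with Python 3.11.15, pandas 2.3.3, scipy 1.17.1 and pysam 0.24.0.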

Additional observations from a re-analysis of the deposited data

How the results depend on the processing

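Of 66 recomputed results 55 stayed within 1.5 times the reported value. Of these, 28 were counts reported as 0, which stricter settings can only leave at 0. With a 3 kb window the Mof+/- promoter, fibrillar and Col4 pair counts were still 0, and with overlap widened to peaks within 1000 bp the overlap count was still 0. The other 11 moved, all of them counts of collagen genes with a Mof+/+ promoter peak (2 reported, with 1 basement membrane and 1 other). With the outermost start of each gene alone, the collagen count was 1 and the basement membrane count 0, against 39.6% of all coding genes. At a q-value of at most 0.01 these were 1 collagen gene and 0 of the other class, against 39% of all. At a q-value of at most 0.001 there were 0 collagen genes, 0 basement membrane and 0 other, against 32.7% of all, and a median fold enrichment could not be computed. With Mof+/+ peaks weaker in p than all Mof+/- peaks left out, it was 1 collagen gene and 0 of the other class, against 37.4%. With type IV alone as basement membrane class, that class had 0 and the other class 2. In each of these the collagen share stayed below that of all coding genes.

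No paired analysis was possible because there is 1 list per genotype and its columns carry no replicate numbers, and for the same reason no replicate was left out. Peaks rest on few fragments, so weak binding is not seen in either list.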
